A study of Mus musculus with 20 samples.

Results

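The step from day 4 (D4) to day 6 (D6) of neural differentiation in WT mouse embryonic stem cells was described here as the change in gene expression between 2 WT libraries taken at D6 and 2 WT libraries taken at D4. These 4 libraries were chosen by their labels from the 20 of the series, which covers WT and TKO cells at D0, D2, D4, D6 and D8 with 2 biological replicates in each of 10 groups. The WT D6 and WT D4 groups both came from the embryonic stem cell line ES-E14TG2a, kept without feeder cells in serum with leukaemia inhibitory factor and then plated on laminin in plain N2B27, a serum-free medium that lets stem cells turn into neural progenitor cells. The TKO D6 and TKO D4 groups, of 2 libraries each, were grown in the same way, and the labels spell out neither TKO nor the genes that it affects. All libraries came from this 1 parent line, the labels mention no sorting of cells, and messenger RNA was sequenced in bulk with a stranded kit.

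Neural induction in such monolayers runs from pluripotency through a formative state and a neural plate state to cycling progenitors. The progenitors, kept in the cell cycle by Notch signalling, release some daughters as neurons. A cell that expresses a Delta ligand activates Notch receptors on its neighbours, where Rbpj switches on Hes genes, and Hes proteins repress the proneural helix-loop-helix genes that drive a cell out of the cycle. Proneural factors bind E-boxes and switch on Delta ligands and a cascade of neuronal genes.

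The deposited files held estimated counts per transcript, which were summed per gene. The 2 D6 libraries held 31542594 and 29363161 estimated counts and the 2 D4 libraries held 34309338 and 33088055. Values are given as CPM, estimated counts of a gene per 1e+06 of its library, scaled between libraries, and 18555 genes had enough counts to test. On the first principal component over 500 variable genes, which took up 71.8% of their variance, the D6 libraries lay at 49.3 and 50.0, the D4 libraries at 17.9 and 18.1, and the D8 libraries at 53.1 and 55.0. On that component no library of either group stood apart from its replicate. Over 10186 genes the SD of the log2 ratio of replicates was 0.165 for WT D6 and 0.159 for WT D4. Among the 10 groups it ran from 0.106 for WT D8 to 0.247 for WT D0, and only WT D0 lay above both compared groups. The tested differences have p-values from edgeR's quasi-likelihood test with Benjamini-Hochberg adjustment over all 18555 genes; a gene passed at an adjusted p under 0.05, and ± after a log2 fold change is its standard error. All folds are D6 over D4.

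The step changed the RNA level of most genes tested, in nearly equal numbers up and down with the scaling used. In the WT step 5072 genes were higher at D6, which is 27.3% of the genes tested, and 4832 were lower, which is 26.0%. With a change of at least 2-fold as well, 1589 genes (8.56%) were higher and 1532 (8.26%) were lower. Because 53.4% of all genes passed in either direction, the counts of each list of genes below are to be read beside these shares. A list with changes both ways at such shares does not differ from the genes tested as a whole. The median of a list is to be read beside the median log2 fold change of all genes, which was 0.00. In bulk RNA, a gene can be lower because fewer cells express it or because each cell holds less of its RNA, and these cannot be told apart here.

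**Figure D1:**
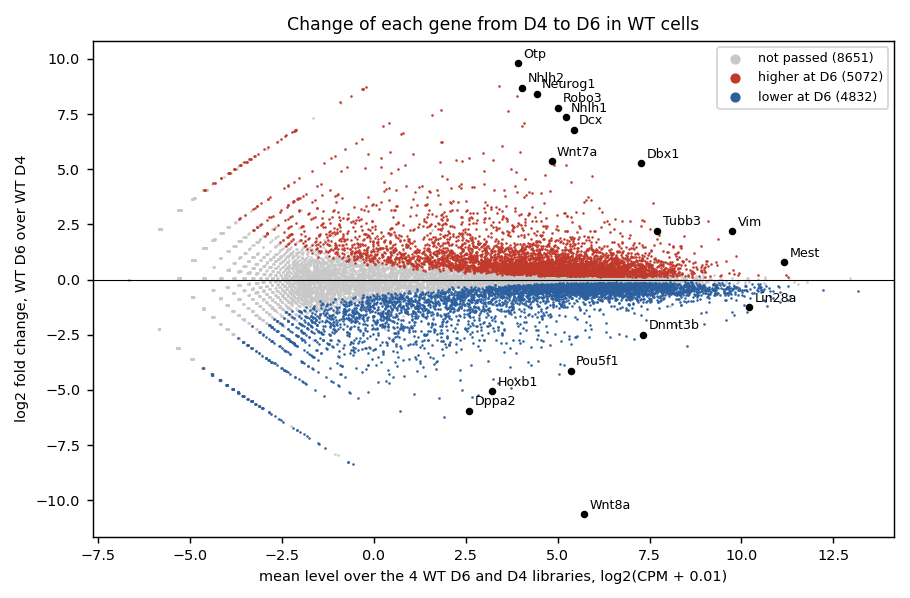
Each point is 1 of the 18555 genes tested, with its mean level over the 4 WT libraries on the x axis, as log2(CPM + 0.01), and its fitted log2 fold change of WT D6 over WT D4 on the y axis. Red points (5072) were higher at D6, blue points (4832) were lower, and grey points did not pass; Otp and Nhlh2 lie near the top and Wnt8a lies alone at the bottom, at -10.62.

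The genes with the steepest gains were mostly transcription factors found in new neurons, with a guidance receptor and a secreted peptide among them. Among the genes named for the highest folds, with at least 5 CPM in a group, Nhlh2, a helix-loop-helix factor of young neurons, had 35.5 and 30.2 CPM at D6, against 0.118 and 0.0306 CPM at D4 (log2 fold change 8.70 ± 0.23, adjusted p = 4.47e-13). Neurog1, a proneural factor, had 44.0 and 42.0 CPM at D6, against 0.0888 and 0.153 CPM at D4 (log2 fold change 8.43 ± 0.26, adjusted p = 2.64e-13). Robo3, a receptor that lets commissural axons cross the midline, had 70.9 and 57.0 CPM at D6, against 0.178 and 0.398 CPM at D4 (log2 fold change 7.78 ± 0.24, adjusted p = 2.64e-13). Each of these was under 0.5 CPM in both D4 libraries and above 30 CPM in both D6 libraries. Otp, a homeobox factor of hypothalamic and other neurons, had 33.5 and 27.5 CPM at D6, against 0.0592 and 0 CPM at D4, and the D4 level rested on 2 counts in all. The ratio of Otp between the groups was 1020, with an exact 95% counting interval of 281 to 8400. Sst, which encodes the peptide somatostatin, had 21.00 and 21.5 CPM at D6, against 0.0592 and 0.0306 CPM at D4, a ratio of 470 with a counting interval of 161 to 2280 from 3 counts at D4. St18, a zinc finger factor of the Myt family, had 28.6 and 21.7 CPM at D6, against 0.118 and 0.123 CPM at D4 (adjusted p = 6.57e-13). The LIM homeobox gene Lhx4, with 6.88 and 5.03 CPM at D6, and Ppp1r17, a phosphatase inhibitor gene with 7.42 and 6.78 CPM at D6, each had 2 counts over the D4 libraries, and their ratios of 199 and 236 had counting intervals of 54.7 to 1650 and 65.0 to 1960.

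A group of 16 genes (0.0862% of those tested) was under 1 CPM in every WT library before D6 and at least 10 CPM in both D6 libraries. Among them were, by falling level at D6, Dcx, Nhlh1, Neurog1, Scrt2, Nhlh2, Scrt1, Dcc, Otp, Kcnk9, St18, Neurod4, Sst, Myt1, Neurog2 and Lhx5. Dcx, which encodes the microtubule protein doublecortin of migrating neurons, was the most abundant with 98.0 and 73.9 CPM at D6, against 0.622 and 0.919 CPM at D4 (log2 fold change 6.80 ± 0.22, adjusted p = 3.87e-13), and it stood at 713 and 724 CPM at D8. Scrt1 and Scrt2 encode zinc finger repressors of the Snail family found in neurons. Scrt1 had 35.6 and 28.9 CPM at D6, against 0.148 and 0.368 CPM at D4. Scrt2 had 39.1 and 28.4 CPM at D6, against 0.326 and 0.153 CPM at D4. Dcc, the netrin receptor of growing axons, had 35.1 and 27.4 CPM at D6, against 0.740 and 0.398 CPM at D4 (log2 fold change 5.76 ± 0.23, adjusted p = 2.86e-12). In all of these the D6 libraries lay apart from the D4 libraries, as the choice of the genes requires.

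Most members of the Notch pathway that changed were higher at D6, with the largest folds for Dll4, Dll3 and Nrarp. Of 24 Notch ligands, receptors, modifiers and targets tested, 18 were higher, 4 were lower and 2 did not pass, with a median log2 fold change of 0.85. Dll1, the main Delta ligand of the neural tube, had 150.2 and 154 CPM at D6, against 68.8 and 62.6 CPM at D4 (log2 fold change 1.21 ± 0.093, adjusted p = 8.72e-09). Dll3, a ligand-like protein that acts on Notch within its own cell, had 49.2 and 41.7 CPM at D6, against 3.82 and 4.41 CPM at D4 (log2 fold change 3.46 ± 0.13, adjusted p = 1.01e-12). Dll4, another Delta ligand, had 16.7 and 14.2 CPM at D6, against 0.237 and 0.337 CPM at D4 (log2 fold change 5.74 ± 0.28, adjusted p = 2.5e-11). The D6 libraries lay well above the D4 libraries for all of these Delta genes. Nrarp, a feedback inhibitor that Notch switches on, had 113 and 142 CPM at D6, against 14.8 and 11.9 CPM at D4 (log2 fold change 3.26 ± 0.15, adjusted p = 1.07e-11). Hes5, the Notch target of neural progenitors, had 79.0 and 90.3 CPM at D6, against 22.2 and 20.1 CPM at D4 (log2 fold change 2.00 ± 0.12, adjusted p = 3.99e-10), whereas it was at 0.232 and 0.0291 CPM at D2. Mfng, which encodes an enzyme that adds sugars to Notch, had 27.7 and 26.7 CPM at D6, against 6.13 and 7.48 CPM at D4 (adjusted p = 1.82e-10). The 4 members that fell were 2 Jagged ligands and 2 repressors that Notch can switch on. Jag2 had 27.8 and 26.0 CPM at D6, against 40.0 and 45.2 CPM at D4. Jag1 had 78.4 and 76.7 CPM at D6, against 93.3 and 90.1 CPM at D4, the smallest of these falls (log2 fold change -0.24 ± 0.068, adjusted p = 0.00611). Hes1 had 39.3 and 35.5 CPM at D6, against 58.6 and 58.0 CPM at D4 (log2 fold change -0.64 ± 0.077, adjusted p = 1.7e-06), and so moved against Hes5. Hey2 had 0.576 and 0.629 CPM at D6, against 2.13 and 2.33 CPM at D4.

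**Figure D2:**
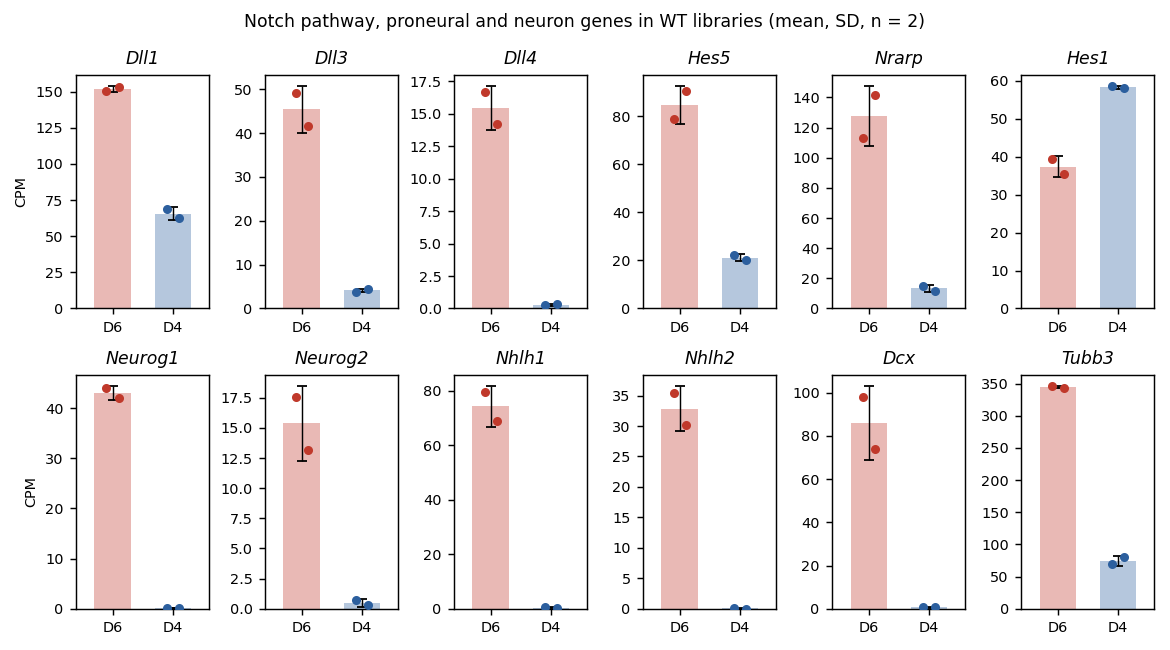
CPM of 12 genes in the 2 WT D6 libraries (left, red) and the 2 WT D4 libraries (right, blue); bars are means, error bars are SDs of n = 2, points are libraries, and the y axes start at 0 and differ between panels. Hes1 is the one gene shown with the lower bar at D6, at 39.3 and 35.5 CPM, against 58.6 and 58.0 CPM at D4.

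Promoters of 4 genes whose RNA rose are printed because Notch and proneural factors are known to act through the letters marked. Each of the 4 holds a marked motif. Among other genes that rose, some promoters hold a motif and some hold none. Each runs from 250 bases before the start of the gene to 50 bases after it, 5′ to 3′ on the gene's strand, from RefSeq on GRCm38.p6. Capitals mark 3 motifs, searched on both strands: the E-box CAGCTG, which is its own reverse complement, the E-box CAGATG, and TGGGAA, the core that Rbpj binds. A match on the other strand appears as its reverse complement, so TTCCCA also marks the Rbpj core. Matches that overlap were each marked. The Hes5 promoter lies at chr4:154960673-154960972 on the + strand, the Dll3 promoter at chr7:28301736-28302035 on the − strand, the Nhlh1 promoter at chr1:172057547-172057846 on the − strand, and the Nhlh2 promoter at chr3:102009895-102010194 on the + strand.
Hes5: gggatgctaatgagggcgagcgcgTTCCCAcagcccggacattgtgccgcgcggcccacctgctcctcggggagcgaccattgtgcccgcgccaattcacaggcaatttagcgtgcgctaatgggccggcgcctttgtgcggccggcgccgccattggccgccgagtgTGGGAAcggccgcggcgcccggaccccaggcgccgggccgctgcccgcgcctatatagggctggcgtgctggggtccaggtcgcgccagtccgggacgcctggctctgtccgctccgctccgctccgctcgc
Dll3: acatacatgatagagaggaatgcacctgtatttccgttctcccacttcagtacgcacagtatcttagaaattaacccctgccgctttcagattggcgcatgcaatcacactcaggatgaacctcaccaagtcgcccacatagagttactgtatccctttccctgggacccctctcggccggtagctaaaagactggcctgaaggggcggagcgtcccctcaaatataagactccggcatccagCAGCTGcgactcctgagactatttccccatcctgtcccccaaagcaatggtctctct
Nhlh1: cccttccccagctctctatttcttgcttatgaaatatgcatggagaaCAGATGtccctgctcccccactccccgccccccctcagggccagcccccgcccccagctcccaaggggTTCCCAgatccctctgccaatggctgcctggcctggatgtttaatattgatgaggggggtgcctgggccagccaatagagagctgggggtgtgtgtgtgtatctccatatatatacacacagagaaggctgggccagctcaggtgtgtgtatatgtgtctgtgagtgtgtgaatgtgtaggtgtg
Nhlh2: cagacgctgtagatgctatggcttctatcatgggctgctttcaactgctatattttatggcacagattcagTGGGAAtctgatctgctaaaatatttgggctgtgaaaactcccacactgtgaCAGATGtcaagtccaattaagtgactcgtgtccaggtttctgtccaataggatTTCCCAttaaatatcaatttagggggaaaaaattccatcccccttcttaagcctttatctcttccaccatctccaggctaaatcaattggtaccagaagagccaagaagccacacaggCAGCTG

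Hes5 held TGGGAA at 2 places, 226 and 82 bases before the start, and neither E-box. Dll3 held CAGCTG once, 7 bases before the start. Nhlh1 held CAGATG 203 bases before the start and TGGGAA 135 bases before it, and Nhlh2 held all 3 motifs. Among other genes that rose, the promoters of Dll4, Neurog1, Neurog2, Dcx and Tubb3 held none of the 3 motifs. Those of Nrarp and Otp held an E-box, and Dll1 and Neurod4 each held an E-box in 1 of 2 promoters. Of the 32851 promoters in the table, 16.3% held CAGCTG, 17.2% held CAGATG and 25.6% held TGGGAA. Among the genes of the Notch list that matched the table, 6 of 19 (31.6%) held CAGCTG, 1 of 19 (5.3%) held CAGATG and 4 of 19 (21.1%) held TGGGAA. Of all genes in the table, 18.3% held CAGCTG, 19.2% held CAGATG and 28.3% held TGGGAA. For the proneural list, 6 of 19 held CAGCTG, 4 of 19 held CAGATG and 4 of 19 held TGGGAA. A match describes these letters and is not a bound site, and TGGGAA is so common that its share says little about any member.

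Proneural helix-loop-helix factors had the highest median of the 34 pathway lists, at 2.59. Of 23 members tested, 16 were higher, 2 were lower and 5 did not pass. Nhlh1 had 79.5 and 68.9 CPM at D6, against 0.503 and 0.398 CPM at D4 (log2 fold change 7.35 ± 0.19, adjusted p = 1.02e-13) and was near its D8 level of 80.2 and 84.3 CPM already at D6. Neurog2, the proneural factor that pairs with Neurog1 in much of the nervous system, had 17.6 and 13.2 CPM at D6, against 0.740 and 0.276 CPM at D4 (log2 fold change 4.90 ± 0.34, adjusted p = 2.31e-09). Neurod2, a factor of later neurons, had 1.33 and 0.761 CPM at D6 and no count in the D4 libraries; against a floor of 3 counts over the D4 group it was at least 23.5-fold higher. The 2 members that fell were Olig3, a factor of dorsal progenitors, and Id1, an inhibitor of helix-loop-helix factors. Olig3 had 3.79 and 3.24 CPM at D6, against 12.9 and 24.9 CPM at D4. Id1 had 10.1 and 11.6 CPM at D6, against 14.7 and 13.4 CPM at D4.

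Of 40 genes of young neurons, 35 were higher at D6, with a median log2 fold change of 2.40. Tubb3, the neuronal beta-tubulin, had 346 and 343 CPM at D6, against 69.0 and 80.0 CPM at D4 (log2 fold change 2.21 ± 0.19, adjusted p = 3.72e-08). Dcx, Scrt1, Scrt2 and St18, given above, had the steepest changes of the list. Stmn2, a tubulin-binding protein of growing axons, was the one member that fell, with 77.0 and 77.5 CPM at D6, against 232 and 235 CPM at D4 (log2 fold change -1.60 ± 0.096, adjusted p = 3.93e-10). In TKO cells Stmn2 had 117 and 146 CPM at D6, against 112 and 99.5 CPM at D4. Genes of synapses and vesicles moved less: 23 of 33 were higher, 3 were lower and the median was 0.96, and 5 of the 33 stayed under 1 CPM in all 4 libraries. Nlgn1, a synaptic adhesion protein, had 2.48 and 2.25 CPM at D6, against 0.148 and 0.123 CPM at D4. The vesicle calcium sensor gene Syt1 had 8.48 and 6.02 CPM at D6, against 1.92 and 2.36 CPM at D4, so both stayed under 10 CPM. Of 29 ion channel genes, 12 were higher and 4 were lower. Scn3a, a sodium channel of young neurons, had 8.51 and 7.35 CPM at D6, against 0.888 and 0.521 CPM at D4 (log2 fold change 3.48 ± 0.24, adjusted p = 2.68e-09). Kcnj3, a G-protein-gated potassium channel, had 0.242 and 0.596 CPM at D6, against 8.38 and 11.3 CPM at D4 (log2 fold change -4.56 ± 0.28, adjusted p = 4.61e-10).

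Genes of neural progenitors and radial glia were higher at D6 as a group, while the neural plate genes were split. Of 29 progenitor genes, 24 were higher, 2 were lower and 3 did not pass, with a median of 1.08. Pou3f3, a POU factor of neural progenitors, had 104 and 97.3 CPM at D6, against 8.201 and 8.03 CPM at D4 (log2 fold change 3.63 ± 0.18, adjusted p = 2.5e-11). Ednrb, the endothelin receptor, had 393 and 317 CPM at D6, against 36.2 and 27.9 CPM at D4 (log2 fold change 3.47 ± 0.13, adjusted p = 1.77e-12). Sox9, which marks progenitors that can make glia, had 18.4 and 20.4 CPM at D6, against 2.99 and 2.79 CPM at D4. Gpm6b, a proteolipid protein gene, had 31.8 and 28.1 CPM at D6, against 4.86 and 3.95 CPM at D4. Fabp7, the brain lipid-binding protein of radial glia, had 29.3 and 38.6 CPM at D6, against 7.22 and 9.35 CPM at D4 (log2 fold change 2.04 ± 0.19, adjusted p = 1.67e-07). Nes, the intermediate filament nestin, had 393 and 416 CPM at D6, against 168.3 and 199 CPM at D4. Pax6 had 221 and 204 CPM at D6, against 140.5 and 149 CPM at D4; the D6 libraries lay above the D4 libraries for both. Vim, another intermediate filament of progenitors, gained more CPM than any named gene but Mest, with 1517 and 1302 CPM at D6, against 325 and 293 CPM at D4 (log2 fold change 2.19 ± 0.082, adjusted p = 1.34e-12). Sox1 and Hes1 were the 2 members that fell. Sox1, an early mark of the neural plate, had 269 and 267 CPM at D6, against 514 and 531 CPM at D4 (log2 fold change -0.96 ± 0.091, adjusted p = 9.48e-08). Sox2, which spans pluripotent and neural cells, had 242 and 239 CPM at D6, against 232 and 213 CPM at D4 (log2 fold change 0.11, adjusted p = 0.121). Sox2 passed with relative log expression scaling (log2 fold change 0.15, adjusted p = 0.0356), with DESeq2 (adjusted p = 0.0228) and without D4 replicate 1 (adjusted p = 0.0470).

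Of 20 neural plate genes, 10 were lower and 7 were higher, with a median of -0.49. Zic5, a zinc finger factor of the early neural plate, had 7.45 and 7.78 CPM at D6, against 40.4 and 33.2 CPM at D4 (log2 fold change -2.27 ± 0.11, adjusted p = 1.53e-11). Pou3f1, a POU factor of primed and early neural cells, had 9.12 and 9.63 CPM at D6, against 44.0 and 58.6 CPM at D4 (log2 fold change -2.45 ± 0.14, adjusted p = 1.22e-10). Lhx5, a LIM homeobox factor, rose, with 16.6 and 13.7 CPM at D6, against 0.770 and 0.705 CPM at D4 (log2 fold change 4.35 ± 0.2, adjusted p = 1.3e-11).

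RNA of pluripotency genes was lower at D6, but several of these genes were still detected. Of 14 core pluripotency genes, 12 were lower and none were higher, with a median of -2.45. Pou5f1, the central factor of the pluripotent state, had 5.76 and 3.04 CPM at D6, against 74.0 and 81.3 CPM at D4 (log2 fold change -4.13 ± 0.29, adjusted p = 2.26e-09), where D0 held 1284 and 1340 CPM. Nanog had 3.33 and 1.82 CPM at D6, against 22.9 and 15.8 CPM at D4 (log2 fold change -2.89 ± 0.26, adjusted p = 6.55e-08). L1td1, an RNA-binding protein gene of stem cells, had 2.03 and 1.06 CPM at D6, against 22.7 and 26.7 CPM at D4. Utf1, a chromatin factor, had 1.33 and 1.09 CPM at D6, against 14.4 and 17.6 CPM at D4. Gdf3, a Tgfb-family ligand, had 4.45 and 4.401 CPM at D6, against 58.4 and 65.8 CPM at D4 (log2 fold change -3.81 ± 0.14, adjusted p = 1.52e-12). Of 18 naive genes, 9 were lower and Tbx3 alone was higher, with 1.42 and 0.827 CPM at D6, against 0.296 and 0.337 CPM at D4 (log2 fold change 1.83 ± 0.46, adjusted p = 0.00281). The naive list summed to 44.6 and 35.0 CPM at D6, against 159 and 147 CPM at D4. Dppa2, which shares 33.8% of its 31-base words with other transcripts, had 0.242 and 0.132 CPM at D6, against 9.95 and 13.8 CPM at D4. Of 18 formative and primed genes, 12 were lower and 4 were higher. Fgf5, the classic mark of the primed state, had already left its D2 level of 12.9 and 8.91 CPM and had 0.273 and 0.298 CPM at D6, against 1.16 and 1.04 CPM at D4. Otx2 had 2.85 and 3.01 CPM at D6, against 4.88 and 4.01 CPM at D4 (log2 fold change -0.60 ± 0.23, adjusted p = 0.0333). Its call was lost with length-scaled TPM counts (adjusted p = 0.0879) and without either D6 library or D4 replicate 1 (adjusted p between 0.0831 and 0.215).

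Factors that pattern the dorsoventral axis were mostly higher at D6. Of 34 dorsoventral factors tested, 24 were higher and 2 were lower, with a median of 1.55. Dbx1, a factor of progenitors on either side of the middle of the spinal cord and hindbrain, had 285 and 319 CPM at D6, against 7.61 and 7.97 CPM at D4 (log2 fold change 5.28 ± 0.16, adjusted p = 5.74e-13). Evx1 and Evx2 are homeobox genes of the interneurons that Dbx1-expressing progenitors make. Evx1 had 3.36 and 3.18 CPM at D6, against 0 and 0.0613 CPM at D4, a ratio of 109 with a counting interval of 29.7 to 904 from 2 counts at D4. Evx2 had 1.51 and 1.92 CPM at D6 and no count at D4, which is at least 37.8-fold higher against the floor of 3 counts over the D4 group. Lhx1, a LIM homeobox factor of interneurons, had 10.4 and 7.97 CPM at D6, against 0.0888 and 0.337 CPM at D4 (log2 fold change 5.42 ± 0.28, adjusted p = 4.79e-11). Olig3, given above, and Msx3, with 1.51 and 1.46 CPM at D6, against 4.44 and 3.77 CPM at D4, were the 2 that fell, and both are factors of dorsal progenitors. Shh, the ventral morphogen, had 7.21 and 4.76 CPM at D6, against 1.92 and 1.26 CPM at D4 (log2 fold change 1.91 ± 0.24, adjusted p = 2.57e-06). Its receptor and target Ptch1 had 273 and 249 CPM at D6, against 137 and 135 CPM at D4 (log2 fold change 0.94 ± 0.091, adjusted p = 1.39e-07). Of 17 Hedgehog pathway genes, 9 were higher and 3 were lower, with a median of 0.33. The co-receptor gene Cdon had 42.8 and 50.9 CPM at D6, against 80.0 and 82.5 CPM at D4.

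Among head-to-tail factors, hindbrain and spinal genes changed in both directions. Hoxb1, a hindbrain Hox gene that retinoic acid induces, had 0.485 and 0.596 CPM at D6, against 15.0 and 21.4 CPM at D4 (log2 fold change -5.07 ± 0.28, adjusted p = 1.09e-10). It was at 0.116 and 0.320 CPM at D2, so that D4 was its highest point in WT cells. Of 24 Hox and Cdx genes tested, 10 were lower and 5 were higher, and 18 of the 28 in the list stayed under 1 CPM in all 4 libraries. The lower ones numbered 6 without D4 replicate 1 and 4 without D6 replicate 2. Hoxb8 had 2.85 and 1.46 CPM at D6, against 0.651 and 0.398 CPM at D4. Hoxa5 had 0.485 and 0.265 CPM at D6, against 1.92 and 1.20 CPM at D4. Hoxa7 had 0.697 and 0.397 CPM at D6, against 1.57 and 1.62 CPM at D4. These were low levels, and the call on Hoxa7 was lost without D6 replicate 2 (adjusted p = 0.0569). Of 24 midbrain and hindbrain factors, 9 were higher and 8 were lower. Gbx2, a hindbrain factor, had 22.4 and 23.4 CPM at D6, against 84.8 and 104 CPM at D4 (log2 fold change -2.04 ± 0.1, adjusted p = 3.13e-11). Pax2, a factor of the midbrain-hindbrain border and of interneurons, had 19.4 and 17.3 CPM at D6, against 0.918 and 1.29 CPM at D4 (log2 fold change 4.05 ± 0.2, adjusted p = 3.82e-11). Of 22 forebrain and eye field genes tested, 12 did not pass and 16 of the 24 listed were under 1 CPM in all 4 libraries. Beside Otp and Lhx5, the forebrain factor Fezf2 had 2.00 and 2.28 CPM at D6, against 7.82 and 7.38 CPM at D4 (log2 fold change -1.83 ± 0.25, adjusted p = 1.24e-05).

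Wnt8a showed the steepest fall of all named genes. Wnt8a, a ligand of the early embryo, had 0.0909 and 0.0331 CPM at D6, against 94.7 and 117 CPM at D4 (log2 fold change -10.62 ± 0.36, adjusted p = 4.77e-13). Its WT levels were 0.0638 and 0.325 CPM at D0, 5.58 and 4.31 CPM at D2 and 0.540 and 0.389 CPM at D8, so that it was high at D4 alone. In the same step Wnt7a, a ligand of the developing brain and spinal cord, had 52.6 and 59.1 CPM at D6, against 1.45 and 1.23 CPM at D4 (log2 fold change 5.38 ± 0.19, adjusted p = 6.98e-13). Wnt1, a ligand of the midbrain and roof plate, had 2.67 and 3.44 CPM at D6, against 0.0592 and 0.123 CPM at D4 (log2 fold change 5.01 ± 0.41, adjusted p = 1.2e-07). Rspo1, a secreted enhancer of Wnt signalling, had 0.545 and 0.927 CPM at D6, against 6.51 and 6.37 CPM at D4 (log2 fold change -3.14 ± 0.26, adjusted p = 1.77e-08). Over the 39 Wnt pathway genes, 16 were higher and 12 were lower, with a median of 0.36. Wnt8a and Hoxb1 thus belong to a small group that left at D6: 9 genes (0.0485% of those tested) had at least 10 CPM in both D4 libraries and under 1 CPM in both D6 libraries, and others of them were Rbmxl2, Lefty1, Mmp25, Pla2g1b, Slc27a2 and Mael.

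**Figure D3:**
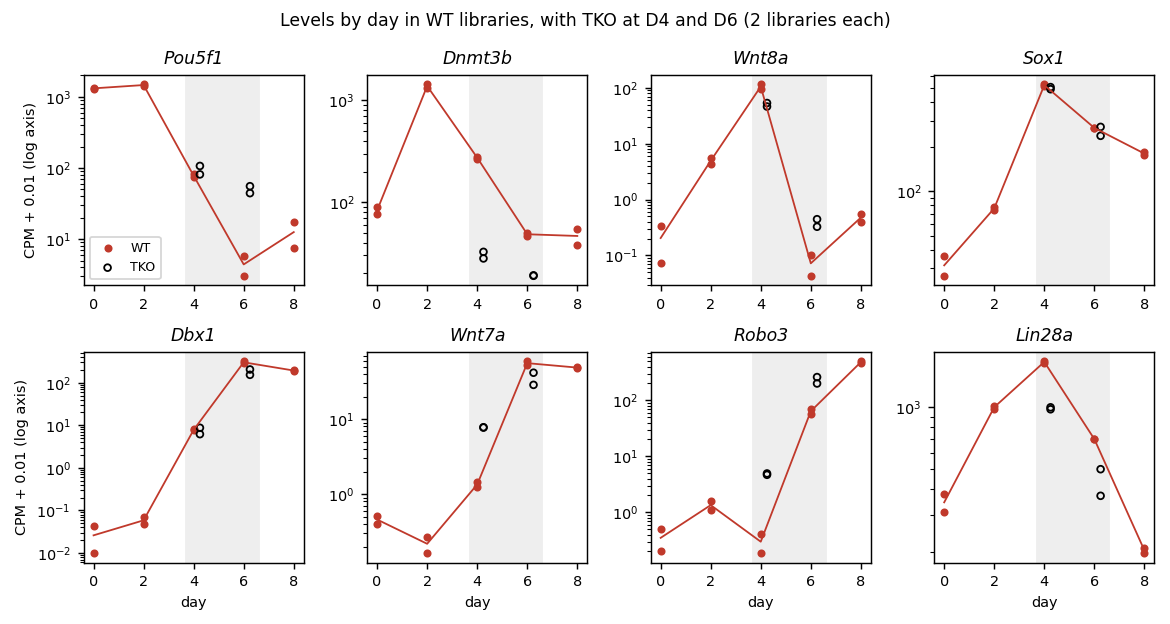
CPM + 0.01 on log axes for 8 genes at D0, D2, D4, D6 and D8 in WT libraries (red points, with a line through the means) and at D4 and D6 in TKO libraries (open circles, drawn slightly to the right); the grey band marks D4 to D6. Wnt8a and Dnmt3b fall across the band, Dbx1, Wnt7a and Robo3 rise across it, and Pou5f1 stays above 40 CPM in the TKO D6 libraries, against 5.76 and 3.04 CPM in the WT D6 libraries.

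Fgf signalling genes were lower at D6 while an Fgf receptor of neural progenitors was higher. Of 27 Fgf and Mapk genes, 17 were lower and 4 were higher, with a median of -0.92. Fgf15, a ligand of the early neural tube, had 4.12 and 5.33 CPM at D6, against 64.9 and 71.3 CPM at D4 (log2 fold change -3.85 ± 0.2, adjusted p = 6.86e-11). Fgf4, a ligand of pluripotent cells, had 0.485 and 0.232 CPM at D6, against 5.71 and 6.50 CPM at D4. Etv4, a transcription factor that Fgf signalling induces, had 0.455 and 0.662 CPM at D6, against 3.85 and 4.90 CPM at D4 (log2 fold change -2.97 ± 0.53, adjusted p = 0.000118). The immediate early gene Fos had 7.36 and 5.03 CPM at D6, against 51.5 and 30.5 CPM at D4 (log2 fold change -2.72 ± 0.29, adjusted p = 3.97e-07). The 4 members that rose were 2 receptors, a phosphatase and a carrier of Fgf. Fgfr3, a receptor of neural progenitors, had 257 and 262 CPM at D6, against 49.4 and 46.1 CPM at D4 (log2 fold change 2.44 ± 0.089, adjusted p = 1.01e-12). Fgfr2 had 80.5 and 90.6 CPM at D6, against 43.9 and 47.1 CPM at D4. Dusp4, the phosphatase, had 82.8 and 67.4 CPM at D6, against 32.5 and 31.8 CPM at D4. Fgfbp3, the carrier, had 127 and 122 CPM at D6, against 103 and 47.0 CPM at D4, with a wide gap between the D4 libraries.

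Retinoic acid genes were lower more often than higher, 13 against 8 of 24, with a median of -0.52. Cyp26a1, the enzyme that degrades retinoic acid and is induced by it, had 0.939 and 1.29 CPM at D6, against 6.63 and 6.96 CPM at D4 (log2 fold change -2.61 ± 0.28, adjusted p = 3.73e-07). Dhrs3, a retinal reductase that retinoic acid also induces, had 0.242 and 0.265 CPM at D6, against 2.87 and 2.88 CPM at D4. Aldh1a1, an enzyme that makes retinoic acid, had 0.121 and 0.132 CPM at D6, against 1.95 and 1.90 CPM at D4. Cyp26c1 had 0.212 and 0.496 CPM at D6, against 1.16 and 0.889 CPM at D4, and its call was lost without D4 replicate 1 or D6 replicate 1 (adjusted p of 0.0749 and 0.145). Of 33 Bmp, Nodal and Tgfb genes, 16 were higher and 7 were lower. Nodal pathway members were among those that fell. Lefty1, a Nodal inhibitor and target, had 0.879 and 0.662 CPM at D6, against 27.1 and 13.3 CPM at D4, with a wide gap between the D4 libraries. Lefty1 shares 25.7% of its 31-base words with other transcripts. Tdgf1, the Nodal co-receptor, had 0.636 and 0.298 CPM at D6, against 2.60 and 2.45 CPM at D4 (log2 fold change -2.40 ± 0.58, adjusted p = 0.00185). Nog, the Bmp antagonist noggin, had 3.15 and 2.55 CPM at D6, against 0.118 and 0.214 CPM at D4 (log2 fold change 4.07 ± 0.51, adjusted p = 3.02e-06).

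Cell cycle genes changed in both directions. Of 38 of them, 22 were lower and 12 were higher, with a median of -0.40. Ccnd2, the cyclin of neural progenitors, had 987 and 1062 CPM at D6, against 312 and 255 CPM at D4 (log2 fold change 1.85 ± 0.1, adjusted p = 1.15e-10). Ccnd3 had 200.0 and 185 CPM at D6, against 69.7 and 74.4 CPM at D4 (log2 fold change 1.42 ± 0.066, adjusted p = 1.48e-11). Cdkn1c, an imprinted inhibitor of cyclin-dependent kinases, had 551 and 546 CPM at D6, against 152 and 126 CPM at D4 (log2 fold change 1.98 ± 0.087, adjusted p = 7.18e-12). Gadd45g, a growth arrest gene that is expressed in cells leaving the cycle in the neural tube, had 36.8 and 35.3 CPM at D6, against 3.85 and 3.52 CPM at D4 (log2 fold change 3.29 ± 0.14, adjusted p = 5.38e-12). The 22 members that fell had log2 fold changes above -1, so that each fell by less than 2-fold.

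Genes of glycolysis and of cholesterol synthesis were lower at D6. Of 24 glycolysis and hypoxia genes, 17 were lower. The 2 that rose were Hk1, the hexokinase of brain, with 50.0 and 49.9 CPM at D6, against 30.4 and 28.8 CPM at D4, and Eno2, the enolase of neurons, with 8.998 and 9.46 CPM at D6, against 5.18 and 4.23 CPM at D4. The list summed to 5323 and 6090 CPM at D6, against 11260 and 11130 CPM at D4. Slc2a1 and Slc2a3 encode glucose transporters. Slc2a1 had 187 and 209 CPM at D6, against 849 and 764 CPM at D4 (log2 fold change -2.03 ± 0.2, adjusted p = 1.39e-07). Slc2a3 had 311 and 358 CPM at D6, against 1291 and 1090 CPM at D4 (log2 fold change -1.83 ± 0.14, adjusted p = 8.08e-09). Slc16a3, which carries lactate out of cells, had 10.2 and 15.0 CPM at D6, against 81.1 and 73.3 CPM at D4. Eno1 had 421 and 475 CPM at D6, against 1210 and 1296 CPM at D4, and it shares 28.5% of its 31-base words with other transcripts. Of 20 cholesterol synthesis genes, 19 were lower and none were higher, with a median of -0.59. Lss, the lanosterol synthase, had 129.8 and 156 CPM at D6, against 324 and 246 CPM at D4 (log2 fold change -0.99 ± 0.1, adjusted p = 3.23e-07). Of 26 nuclear genes of oxidative phosphorylation, 15 were lower and none were higher, with a median of -0.17; without D6 replicate 1 there were 9 lower. Among stress and unfolded protein response genes, 11 of 23 were lower and 1 was higher. Eef1a1, a translation elongation factor that shares 48.6% of its 31-base words with other transcripts, had the largest fall in CPM, with 7635 and 7502 CPM at D6, against 10910 and 10750 CPM at D4. Npm1, a protein of the nucleolus, had 1367 and 1465 CPM at D6, against 2872 and 2775 CPM at D4. Because CPM is a share of the library, these falls and the gains above are relative to the RNA of all genes.

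Most of the RNA-binding proteins listed were higher at D6. Of 28 RNA-binding and splicing factors, 19 were higher and 4 were lower, with a median of 0.49. Celf3 had 39.4 and 35.0 CPM at D6, against 2.37 and 2.57 CPM at D4 (log2 fold change 3.91 ± 0.15, adjusted p = 1.52e-12). Elavl4, an Elav protein that binds RNA in neurons, had 73.7 and 59.96 CPM at D6, against 11.0 and 6.93 CPM at D4 (log2 fold change 2.90 ± 0.15, adjusted p = 4.86e-11). Srrm4, the splicing factor that includes neural microexons, had 48.1 and 42.6 CPM at D6, against 5.74 and 7.17 CPM at D4 (log2 fold change 2.81 ± 0.1, adjusted p = 1.01e-12). Esrp1, a splicing factor of epithelial cells, had 2.48 and 2.58 CPM at D6, against 10.8 and 9.96 CPM at D4 (log2 fold change -2.04 ± 0.19, adjusted p = 1.11e-07). The others that fell were Esrp2, Cpeb1 and Ptbp1, the last a repressor of neural exons with 681 and 704 CPM at D6, against 876 and 952 CPM at D4 (log2 fold change -0.40 ± 0.058, adjusted p = 1.43e-05). Lin28a, a stem cell protein that blocks let-7 microRNAs, had 702 and 701 CPM at D6, against 1671 and 1648 CPM at D4 (log2 fold change -1.24 ± 0.1, adjusted p = 1.39e-08). Of the 14 genes of that axis 5 were higher and 6 were lower.

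Transcript shares shifted within genes as well. Among 6890 genes with at least 20 CPM in each of the 4 libraries and more than 1 transcript, 62 (0.9%) had a transcript whose share of the gene's TPM, a level per length that sums to 1e+06 in a library, was at least 20 percentage points higher at D6 with the groups apart. The estimates divide reads between transcripts that overlap, and with 2 libraries against 2 the smallest exact permutation p is above 0.05, so no test is given. The 8 with the largest gains were in Cdyl, Pcyt1b, Myl6, Dph3, Dennd1b, Rpl3, App and Dnmt3b. The gained Cdyl form, of a chromatin protein, made up 97.4% and 87.0% of the gene's TPM at D6, against 17.5% and 15.2% at D4. It codes for 544 residues and the form that lost most for 593. The gained Pcyt1b form, of an enzyme of phosphatidylcholine synthesis, made up 87.3% and 72.7% at D6, against 13.0% and 13.6% at D4; it codes for 339 residues and the form that lost most for 369.

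Single coding exons that are skipped or included told App and Dnmt3b forms apart, and their sequences are printed for that reason, on the coding strand and from the GENCODE M21 transcripts on GRCm38. App encodes the amyloid precursor protein, and its exon 7 encodes the Kunitz protease inhibitor domain, which the main form in neurons lacks. The exon lies at chr16:85043576-85043743 on the − strand and has 168 bases. Dnmt3b encodes a de novo DNA methyltransferase, and its exon 10 lies at chr2:153670849-153670908 on the + strand and has 60 bases.
App exon 7: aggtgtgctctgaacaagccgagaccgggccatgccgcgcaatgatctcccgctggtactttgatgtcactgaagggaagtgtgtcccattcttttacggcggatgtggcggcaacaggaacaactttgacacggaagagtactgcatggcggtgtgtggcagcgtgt
Dnmt3b exon 10: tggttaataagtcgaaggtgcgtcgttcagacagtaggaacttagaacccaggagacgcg

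The share of App TPM from transcripts with exon 7, among those that span it, was 40.5% and 40.7% at D6, against 75.4% and 74.2% at D4. In WT cells it was 21.8% and 20.1% at D8. The transcript that gained, which codes for 695 residues without the exon, held 58.1% and 59.1% of App TPM at D6, against 24.3% in each D4 library. The gene as a whole rose, with 136 and 126 CPM at D6, against 69.5 and 53.1 CPM at D4 (log2 fold change 1.09 ± 0.12, adjusted p = 4.45e-07). For Dnmt3b the share with exon 10 was 28.0% and 30.1% at D6, against 84.6% and 79.6% at D4. Summed over forms, Dnmt3b fell, with 46.6 and 50.3 CPM at D6, against 268 and 281 CPM at D4 (log2 fold change -2.50 ± 0.12, adjusted p = 3.46e-11). In absolute terms Dnmt3b forms with the exon had 5.80 and 6.58 TPM at D6, against 85.5 and 85.8 TPM at D4, and forms without it had 14.9 and 15.2 TPM at D6, against 15.6 and 22.0 TPM at D4. The D6 libraries lay below the D4 libraries on both measures, and forms with the exon lost the more TPM. Myl6, a myosin light chain, gained a 45-base exon at chr10:128491720-128491764. Its share was 74.0% and 71.9% at D6, against 25.6% and 20.3% at D4. The gene's total did not pass (266 and 269 CPM at D6, against 242 and 258 CPM at D4, adjusted p = 0.166). In TKO cells the App share was 40.0% and 36.4% at D6, against 72.8% and 77.2% at D4, and the Myl6 share was 51.1% and 58.1% at D6, against 29.5% and 29.7% at D4. The Dnmt3b share in TKO cells was 37.1% and 42.4% at D6, against 58.6% and 58.9% at D4. In WT cells the Dnmt3b share was 60.1% and 38.8% at D8, with a wide gap between the libraries.

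**Figure D4:**
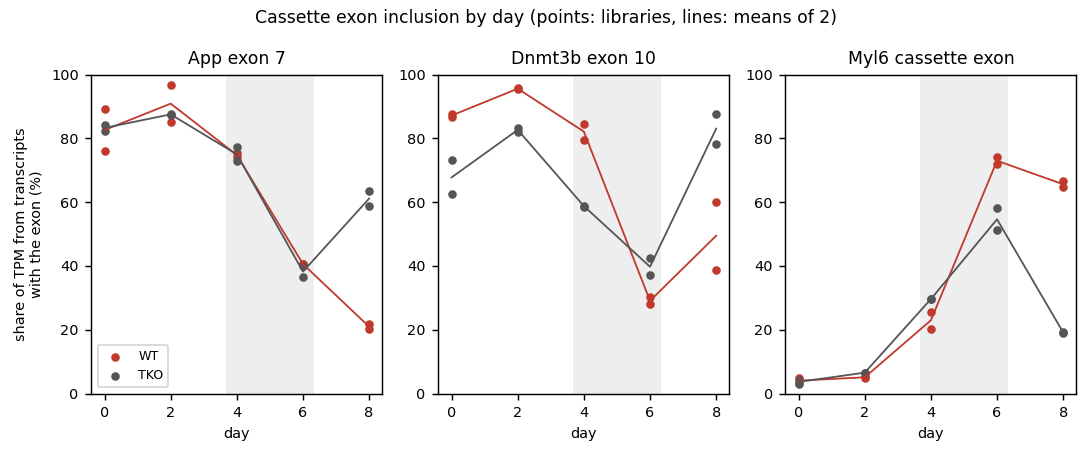
Share of a gene's TPM, in percent, from transcripts with the named exon among transcripts that span it, at D0 to D8 in WT (red) and TKO (grey) libraries; points are libraries, lines join means of 2, and the grey band marks D4 to D6. Across the band the WT share falls for App and Dnmt3b and rises for Myl6, and it does so in both WT libraries of each group.

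Chromatin genes were split, as were all genes tested, of which 27.3% were higher and 26.0% were lower. Of 37 BAF and Polycomb genes, 14 were higher and 12 were lower, with a median of 0.10. Actl6b, the BAF subunit of neurons, had 2.67 and 2.35 CPM at D6, against 0.178 and 0.0919 CPM at D4 (log2 fold change 4.17 ± 0.41, adjusted p = 1.58e-07). Dpf3 had 2.12 and 1.49 CPM at D6, against 0.0888 and 0.245 CPM at D4 (log2 fold change 3.42 ± 0.38, adjusted p = 6.26e-07). Actl6a, which Actl6b replaces in neurons and which was named after its values were seen, had 108 and 126 CPM at D6, against 167.6 and 165 CPM at D4 (log2 fold change -0.51 ± 0.068, adjusted p = 6.06e-06). Dnmt1, the maintenance methyltransferase, had 374 and 406 CPM at D6, against 417 and 449 CPM at D4 (log2 fold change -0.15, adjusted p = 0.136). Dnmt3a had 104 and 108 CPM at D6, against 92.4 and 85.7 CPM at D4 (log2 fold change 0.25 ± 0.069, adjusted p = 0.00502). That call was lost with length-scaled TPM counts (adjusted p = 0.516) and without D4 replicate 2 (adjusted p = 0.0630). Tet2, a methylcytosine dioxygenase, had 31.1 and 26.1 CPM at D6, against 10.3 and 11.7 CPM at D4 (log2 fold change 1.38 ± 0.12, adjusted p = 2.99e-08).

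Most axon guidance genes were higher at D6, while cadherin and junction genes were split. Of 33 cadherin and junction genes, 15 were higher and 11 were lower. Epcam, an epithelial adhesion molecule on the surface ectoderm list, had 6.03 and 5.76 CPM at D6, against 37.8 and 37.3 CPM at D4 (log2 fold change -2.67 ± 0.14, adjusted p = 4.76e-11). Pcdh17, a delta protocadherin, had 55.8 and 59.8 CPM at D6, against 1.42 and 1.72 CPM at D4 (log2 fold change 5.20 ± 0.19, adjusted p = 1.01e-12). Fat4, a giant cadherin of progenitors, had 108 and 102 CPM at D6, against 6.96 and 8.95 CPM at D4 (log2 fold change 3.73 ± 0.16, adjusted p = 3.83e-12). Cdh11 had 38.8 and 33.98 CPM at D6, against 4.44 and 5.79 CPM at D4. Of 42 axon guidance genes, 31 were higher and 6 were lower, with a median of 0.97. Beside Robo3 and Dcc, Slit1, a repellent ligand of Robo receptors, had 38.1 and 35.2 CPM at D6, against 5.86 and 5.82 CPM at D4 (log2 fold change 2.65 ± 0.097, adjusted p = 1.01e-12). Among 33 extracellular matrix genes tested, 16 were higher and 9 were lower. Col4a5, a basement membrane collagen, had 40.8 and 44.5 CPM at D6, against 8.201 and 8.89 CPM at D4 (log2 fold change 2.32 ± 0.14, adjusted p = 5.27e-10). Itgb8, an integrin of progenitors, had 173 and 136 CPM at D6, against 33.5 and 29.97 CPM at D4 (log2 fold change 2.28 ± 0.11, adjusted p = 3.71e-11). Markers of mesenchyme and fibroblasts moved with these: 8 of 14 were higher and 2 were lower, and the list of 16 summed to 491 and 504 CPM at D6, against 166 and 203 CPM at D4. Most of that sum at D6 was Tagln and Acta2, which many cell types with actin fibres express. Tagln had 239 and 236 CPM at D6, against 75.7 and 93.9 CPM at D4. Acta2 had 125 and 138 CPM at D6, against 13.7 and 18.2 CPM at D4. The collagen Col3a1 had 1.73 and 2.71 CPM at D6, against 0.0592 and 0.0306 CPM at D4, from 3 counts at D4. In this list 5 of the 16 were under 1 CPM in all 4 libraries. Their part in the matrix result was not tested.

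Markers of other cell types changed in both directions, as did all genes tested, of which 27.3% were higher and 26.0% were lower. Of 14 neural crest markers, 3 were higher, 1 was lower and 10 did not pass, with a median log2 fold change of -0.11. Ngfr had 15.8 and 17.2 CPM at D6, against 1.54 and 1.87 CPM at D4. Ets1 had 17.3 and 15.8 CPM at D6, against 3.26 and 3.80 CPM at D4. The list summed to 63.1 and 61.5 CPM at D6, against 43.7 and 46.4 CPM at D4. Of 14 glial markers tested, 3 were higher and 6 were lower, and the list summed to 447.0 and 444.6 CPM at D6, against 750.3 and 614.6 CPM at D4. Without D4 replicate 1 the lower ones numbered 3. Aldoc, an aldolase of astrocytes, had 4.39 and 5.23 CPM at D6, against 10.1 and 8.37 CPM at D4 (log2 fold change -0.94 ± 0.3, adjusted p = 0.0126), and Aldh1l1 had 1.49 and 1.32 CPM at D6, against 2.75 and 2.48 CPM at D4 (log2 fold change -0.90 ± 0.18, adjusted p = 0.000495). Gja1, a gap junction protein of astrocytes that held much of the sum and was named after its values were seen, had 219 and 228 CPM at D6, against 442 and 381 CPM at D4 (log2 fold change -0.88 ± 0.067, adjusted p = 6.68e-09). Slc1a2, a glutamate transporter of astrocytes and radial glia, had 25.6 and 20.3 CPM at D6, against 4.14 and 4.20 CPM at D4. Aqp4, the water channel of astrocytes, had 4.27 and 5.82 CPM at D6, against 0.0592 and 0.705 CPM at D4 (log2 fold change 3.72 ± 0.97, adjusted p = 0.00456). Of 16 streak and mesoderm markers tested, 5 were lower and Evx1 alone was higher, while without D4 replicate 2 there were 3 lower and 2 higher. The list summed to 21.9 and 19.4 CPM at D6, against 20.8 and 25.9 CPM at D4. Of 20 endoderm markers, 6 were higher and 3 were lower, and the list summed to 869.2 and 768.1 CPM at D6, against 468.7 and 510.3 CPM at D4. Sparc, a matrix protein named after its values were seen, held the largest part of the sum and had 450.2 and 418 CPM at D6, against 219.6 and 261 CPM at D4 (log2 fold change 0.85 ± 0.13, adjusted p = 1.78e-05). Sox17, a factor of early endoderm, had 1.73 and 0.860 CPM at D6, against 0.178 and 0.214 CPM at D4 (log2 fold change 2.71 ± 0.58, adjusted p = 0.000721), and Hhex had 0.455 and 0.827 CPM at D6, against 3.11 and 3.40 CPM at D4. Among 17 surface ectoderm markers tested, 6 were higher and 5 were lower, with a median log2 fold change of -0.08. Epcam, given above, was among those that fell. Krt7 rose, with 7.36 and 7.41 CPM at D6, against 1.39 and 1.32 CPM at D4. Krt5 had no count in any of the 4 libraries. The list summed to 185.4 and 174.3 CPM at D6, against 200.0 and 208.1 CPM at D4. Trophoblast markers summed to at most 20.8 CPM and endothelial and blood markers to at most 13.2 CPM in any of the 4 libraries. Of 10 primordial germ cell markers, 6 were lower. Nanos3 alone was higher, at 0.757 and 0.662 CPM at D6, against 0.237 and 0.0613 CPM at D4. Ddx4, an RNA helicase of germ cells, had 1.000 and 1.52 CPM at D6, against 28.9 and 26.2 CPM at D4 (log2 fold change -4.46 ± 0.19, adjusted p = 3.82e-12).

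Some genes were at their highest in WT cells at D6 itself. For 1550 genes (8.35%) that passed, both D6 libraries lay above the other 8 WT libraries, and for 401 of them the D6 mean was at least 1.5 times the next highest group mean. The 8 with the largest ratio among those with at least 10 CPM in each D6 library were Col8a1, Lix1, Cp, Sema3b, Mt3, Borcs6, S1pr3 and Slc7a2. Col8a1, a short-chain collagen, had 76.1 and 69.0 CPM at D6, against 2.34 and 1.59 CPM at D4 and 4.32 and 4.79 CPM at D8, which is 15.9 times its next highest mean. Cp, which encodes the copper protein ceruloplasmin, had 136 and 98.3 CPM at D6, against 4.50 and 4.57 CPM at D4 and 16.7 and 22.8 CPM at D8, 5.95 times its next highest mean. Mt3, a metallothionein of the brain, had 87.4 and 75.1 CPM at D6, against 16.7 and 15.5 CPM at D4 and 6.20 and 7.85 CPM at D8. These choices rest on the levels themselves and are descriptions with no test.

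The WT step differed from the TKO step for 3172 genes (17.1% of those tested) in the test of the difference, with the WT step above for 1587 (8.55%) and below for 1585 (8.54%). Without TKO D4 replicate 2 there were 1024 above and 1161 below, and with a difference of at least 2-fold there were 331 above and 1060 below. For 16 of 18 naive pluripotency genes the WT step lay below the TKO step in that test, and for 8 of 14 core genes. Of the 18 naive genes 9 were themselves lower in the WT step. Pou5f1 had 5.76 and 3.04 CPM in WT D6 and 74.0 and 81.3 CPM in WT D4 libraries. It had 55.4 and 44.2 CPM in TKO D6 and 107 and 81.1 CPM in TKO D4 libraries, a difference of the steps of -3.21 ± 0.36 on the log2 scale, adjusted p = 8.52e-06. For 9 of 10 germ cell genes the WT step lay below the TKO step. Ddx4 had 27.9 and 31.9 CPM in TKO D6 and 35.4 and 35.0 CPM in TKO D4 libraries, a difference of -4.22 ± 0.23 on the log2 scale, adjusted p = 2.74e-09. Of 22 p53 targets, 13 had a WT step above the TKO step. Among them Fas, a death receptor, had 6.70 and 4.17 CPM at D6, against 0.385 and 0.306 CPM at D4 in WT cells. It had 4.46 and 3.09 CPM in TKO D6 and 1.20 and 1.35 CPM in TKO D4 libraries, a difference of 2.39 ± 0.57 on the log2 scale, adjusted p = 0.00684. For the 29 progenitor genes the WT step was above the TKO step for 14 and below it for 4. Vim had 941 and 953 CPM in TKO D6 and 499 and 527 CPM in TKO D4 libraries, a difference of 1.30 ± 0.11 on the log2 scale, adjusted p = 4.53e-07. The young neuron list was split, with 8 of 40 above and 10 below. For Dll1, Hes5, Sox1, Sox2, Dnmt1 and Dnmt3a the difference did not pass (adjusted p between 0.261 and 0.997), which does not show that the steps are equal.

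Levels are given here for some genes with a large gap between the steps, in WT cells alone for Tll1. No TKO level is given for Tex101, Otud6a, Hormad1 and Col6a5. Kcnk9, a background potassium channel, had 27.1 and 24.4 CPM at D6, against 0.592 and 0.981 CPM at D4 in WT cells. The TKO libraries held 0.695 and 0.737 CPM at D6 and 0.286 and 0.297 CPM at D4 (difference 3.75 ± 0.49 on the log2 scale, adjusted p = 4.13e-05). Wnt7a had 28.6 and 41.6 CPM in TKO D6 and 7.72 and 7.80 CPM in TKO D4 libraries (difference 3.20 ± 0.25 on the log2 scale, adjusted p = 1.63e-07), so that its TKO level at D4 was above the WT one and its TKO level at D6 below. Ppp1r17 had 8.87 and 12.6 CPM in TKO D6 and 1.06 and 0.991 CPM in TKO D4 libraries. Tll1, a metalloproteinase gene, had 8.73 and 7.61 CPM at D6, against 0.740 and 0.643 CPM at D4 in WT cells. Mab21l1, which shares 38.6% of its 31-base words with other transcripts, had 2.39 and 2.32 CPM in WT D6 and 0 and 0.0306 CPM in WT D4 libraries, and its difference (adjusted p = 0.0476) was lost in most alternatives. On the other side, Rpl10l, Tex101, Otud6a and Hormad1, genes known mainly from the testis or from germ cells, had no count in either WT D6 library. Against a floor of 3 counts over the D6 group, Rpl10l was at least 16.5-fold lower in WT D6 than in WT D4 libraries, which held 0.770 and 0.797 CPM. In TKO cells it had 10.0 and 10.9 CPM at D6 and 6.61 and 6.14 CPM at D4. Cnmd, which encodes the cartilage protein chondromodulin, had 0.394 and 0.265 CPM in WT D6 and 0.0888 and 0.0613 CPM in WT D4 libraries. It had 14.8 and 17.6 CPM in TKO D6 and 0.0572 and 0.0661 CPM in TKO D4 libraries.

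**Figure D5:**
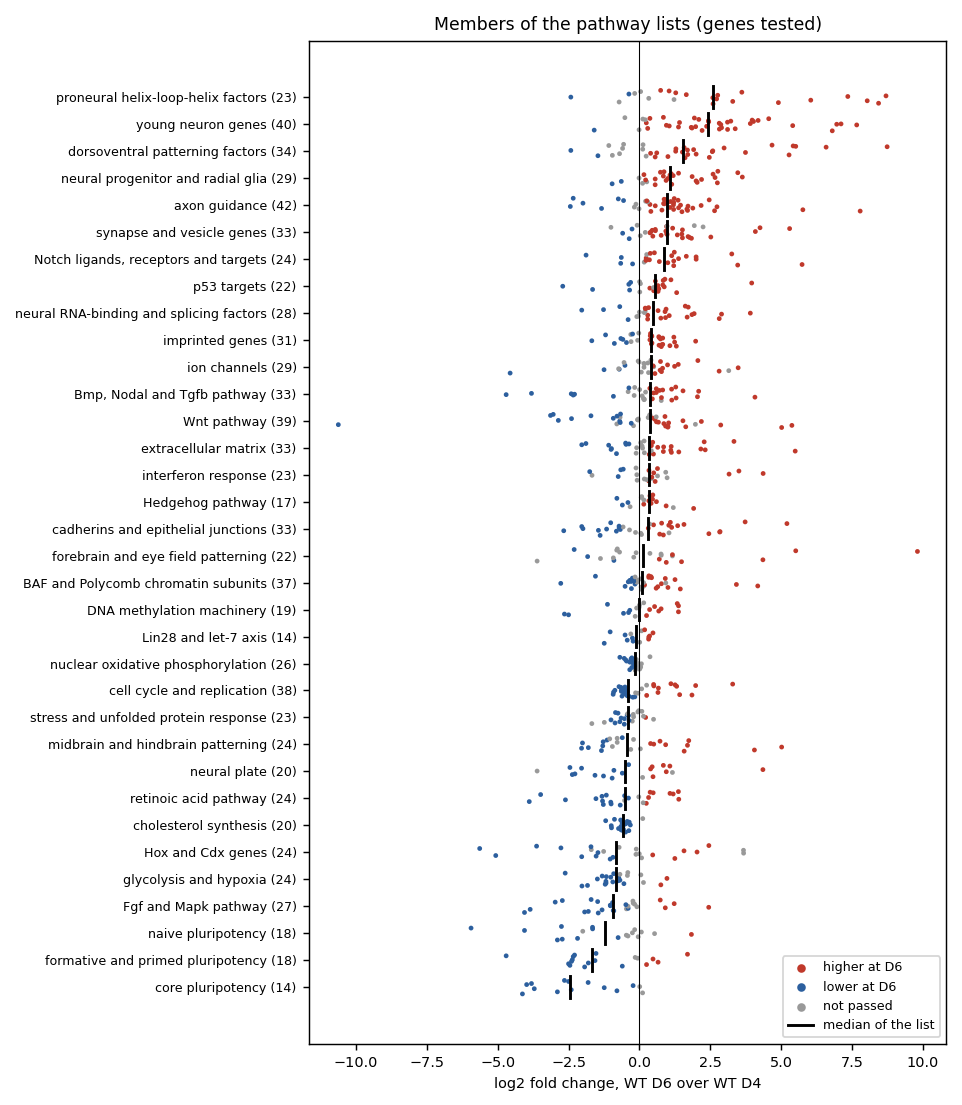
Fitted log2 fold change of WT D6 over WT D4 (x axis) for the members of the 34 pathway lists, with the number tested in brackets; red points were higher at D6, blue points were lower, grey points did not pass, and black bars are list medians. The medians run from -2.45 for core pluripotency to 2.59 for proneural factors, against 0.00 over all genes.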

How the data were processed

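Messenger RNA was measured in 20 libraries, and the 4 WT libraries at D6 and D4 form the comparison described. Per the submitters' processing notes, reads were trimmed with Trim Galore 0.6.2 and quantified with kallisto, with GRCm38 (mm10) named as the build; the kallisto version and the transcript set are not given in the sources used here. The deposited estimated counts per transcript were summed per gene, through GENCODE M21 names for 116728 of 119414 transcripts, and rounded to whole numbers. The deposited TPM values were used for transcript shares and for the alternative with length-scaled counts. The deposited count estimates of near-identical genes can be split between them. The share of 31-base words found in other genes' transcripts is given for some such genes. A gene given without it may share words too. Counts without a gene name (0.943% to 1.099% of each library) were left out. The 20 libraries held 26015282 to 38074768 estimated counts.

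The fit used edgeR 4.0.16 in R 4.3.3: TMM scaling, filterByExpr, 1 mean per group over all 20 libraries, and the quasi-likelihood test with Benjamini-Hochberg adjustment over 18555 genes. The difference of the WT and TKO steps was a contrast of the same fit. The procedure was run on simulated data in which few genes changed, in the WT D6 group alone, with the spread taken from the real fit. Such data do not test the scaling where as many genes change as in the WT step. Alternatives were DESeq2 1.42.0, other scaling, filters, thresholds and samples, and each library left out.

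The libraries, gene lists and rule for named genes were chosen with earlier results of these data known. The rule takes the 12 highest and 12 lowest folds and 8 largest CPM changes each way, up to 4 members per list, the 6 largest differences of the steps each way, 18 genes of the differentiation, and the leading onset, D6 peak and transcript-share genes. Members named because few of their list moved a given way, the rest of the onset genes and of the genes that left at D6, and genes said to be so named were picked after their values were seen. Some genes that the rule takes are not reported here. Promoters came from RefSeq. Replicates are labelled biological, and whether each is a separate culture is not stated, so p-values measure only the spread between replicate libraries of this series. That spread was estimated over all 20 libraries and not from the 4 compared libraries alone. A fit to the 4 compared libraries alone called 8810 genes for the WT step. Intervals on counts cover counting error only.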

Additional observations from a re-analysis of the deposited data

Results flagged for a closer look

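The test of the difference between the WT step and the TKO step passed for 3172 genes, and each result in this section was picked out by that test. Among the genes for which the WT step lay furthest above the TKO step, the differences on the log2 scale were those of Ppp1r17 (4.32), Kcnk9 (3.75), Tll1 (3.67), Wnt7a (3.20) and Mab21l1 (3.12). The WT step lay furthest below it for Rpl10l (-8.32), Tex101 (-7.87), Otud6a (-7.30), Hormad1 (-6.73), Col6a5 (-6.07) and Cnmd (-5.87). Rpl10l, Tex101, Otud6a and Hormad1 had no count in the WT D6 libraries, so their fitted values depend on the prior count and are not bounds. Against a floor of 3 counts over the WT D6 group, Tex101 was at least 4.76-fold lower, Otud6a at least 7.30-fold lower and Hormad1 at least 12.1-fold lower in WT D6 than in WT D4 libraries. For Col6a5 the ratio of WT D6 to WT D4 was 0.0955, with an exact 95% counting interval of 0.0187 to 0.304. These folds of Tex101, Otud6a, Hormad1 and Col6a5 describe the WT step alone, and their TKO levels are not given.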

How the results depend on the processing

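The WT step kept both directions under every alternative run, and its count of calls stayed within 1.5 times the 9904 reported, except with the added demand of a 2-fold change, which left 3121 genes, 1589 higher and 1532 lower. DESeq2 called 9386 genes, 5149 higher and 4237 lower, and an adjusted p under 0.01 left 8044. Relative log expression scaling gave 5472 higher and 4492 lower. With each of these 2 scalings 54.9% of the calls were higher, against 51.2% in the main fit, so the near balance of directions depends on the scaling. Leaving out 1 library at a time gave 8228 to 9179 calls (4237 to 4689 higher, 3991 to 4490 lower). Same-numbered libraries did not deviate together (correlation 0.08 over 10186 genes), so the numbers were used as names. With the replicate number as a block there were 9866 calls for the WT step and 3179 for the difference of the steps, which did not move either by 1.5 times. The 3172 differences of the steps became 1768 at an adjusted p under 0.01 (835 above and 933 below) and 1391 with a 2-fold difference (331 above); length-scaled TPM counts gave 982 above, and leaving out 1 library gave 2185 to 2699 in all, 1024 to 1399 above and 1161 to 1346 below; the cause was not tested. Genes that peaked at D6 fell to 401 of 1550 at a ratio of 1.5, and transcripts that gained share numbered 534 at 10 points and 9 at 30 points, against 62. Of 2779 values for named genes in the WT step, 2709 kept their direction and side of the threshold, 66 lost the call, 3 gained it, all of them Sox2, and Gata3 turned to 0.041 with length-scaled TPM counts (adjusted p = 0.968, against a fall of -1.14); the cause was not tested. Of 192 values for differences of the steps, 11 lost the call, all of them Mab21l1. Of 1118 counts of list members higher or lower, 87 moved by over 1.5 times, 47 of them with the demand of a 2-fold change. The higher interferon response genes numbered 5 without D4 replicate 2, against 9 of 23 tested. The lower p53 targets numbered 3, 2 and 3 without D4 replicate 2, D6 replicate 1 and D6 replicate 2, against 5. The Hox, nuclear oxidative phosphorylation, glial and streak lists are given in the report; the other counts that moved on leaving out 1 library were of 3 genes or fewer, which move by over 1.5 times with 1 or 2 genes. Genes under 1 CPM rest on few counts, which limits how well their changes are known.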

Other observations

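Imprinted genes and p53 targets were also mostly higher at D6. Of 31 imprinted genes, 20 were higher and 7 were lower, with a median log2 fold change of 0.42, against 0.00 over all genes. Mest, an imprinted hydrolase gene, had 2961 and 2827 CPM at D6, against 1722 and 1635 CPM at D4 (log2 fold change 0.79 ± 0.06, adjusted p = 7.21e-09), the largest gain in CPM among named genes. Peg10, an imprinted gene derived from a retrotransposon, had 1333 and 1171 CPM at D6, against 555 and 634 CPM at D4 (log2 fold change 1.07 ± 0.085, adjusted p = 1.11e-08). Phlda2, an imprinted growth regulator of the placenta, had 4.27 and 3.54 CPM at D6, against 10.9 and 14.2 CPM at D4 (log2 fold change -1.68 ± 0.15, adjusted p = 3.62e-08). Of 22 p53 targets, 13 were higher and 5 were lower; Cdkn1a, the cyclin-dependent kinase inhibitor p21, had 151 and 165 CPM at D6, against 64.0 and 63.2 CPM at D4 (log2 fold change 1.31 ± 0.067, adjusted p = 4.76e-11), and Btg2, an antiproliferative gene of neurogenic progenitors, had 110.1 and 118 CPM at D6, against 55.1 and 50.5 CPM at D4 (log2 fold change 1.11 ± 0.075, adjusted p = 1.51e-09). Both D6 libraries lay above both D4 libraries for each of these genes except Phlda2, for which both lay below.

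Of 23 interferon response genes tested, 9 were higher and 4 were lower, and 11 of the list were under 1 CPM in all 4 libraries. Bst2, a membrane protein that tethers viruses, had 10.9 and 10.9 CPM at D6, against 40.2 and 33.2 CPM at D4 (log2 fold change -1.75 ± 0.16, adjusted p = 7.04e-08), and Ifitm3 had 12.03 and 10.8 CPM at D6, against 17.8 and 20.6 CPM at D4 (log2 fold change -0.75 ± 0.11, adjusted p = 2.7e-05). In the stress list, Asns, the asparagine synthetase, had 112 and 116 CPM at D6, against 192 and 222 CPM at D4 (log2 fold change -0.86 ± 0.12, adjusted p = 1.07e-05). Mthfd2, a mitochondrial folate enzyme, had 27.1 and 49.9 CPM at D6, against 69.1 and 84.6 CPM at D4 (adjusted p = 0.0117), a call lost without D6 replicate 1 (adjusted p = 0.177) or D4 replicate 2 (adjusted p = 0.0807).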
